A study of Mus musculus with 4 samples.

Results

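A set of 9 genes of bone morphogenetic protein (BMP) signalling was followed in mouse embryonic stem (ES) cells in which Polycomb RING-finger genes had been targeted. They were all genes given by 9 chosen symbols, and every probe set annotated to exactly 1 of these symbols was taken. This gave 15 probe sets for 9 of the 18193 named genes on the array. They encode the secreted ligands Bmp2, Bmp4 and Bmp7, the proteinase Bmp1, the membrane and intracellular inhibitors Bambi and Smad6, and the target genes Id1, Id2 and Id3.

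The study holds 4 Affymetrix arrays, 1 for each of 4 groups of ES cells. The first pair is a constitutive Ring1B knockout (KO) and its control, and the second is a conditional Ring1A/B double KO taken at day 4 and its control. The double KO was made inducible with OHT (4-hydroxytamoxifen), because cells that lack both proteins constitutively could not be kept in culture. Both controls are labelled wild-type, and the labels do not say whether the second control received OHT, which clone or strain any line came from, or whether feeder cells were present. Ring1A and Ring1B, encoded by Ring1 and Rnf2, are the RING-finger subunits of Polycomb repressive complex 1, which ubiquitylates histone H2A and holds many developmental genes silent.

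BMP ligands are dimers that bind type I and type II serine/threonine kinase receptors. The receptors phosphorylate Smad1, Smad5 and Smad9, which enter the nucleus with Smad4 and switch on the Id genes. Id proteins carry a helix-loop-helix but no DNA-binding region, so they hold E proteins and their partners away from DNA. In mouse ES cell culture, BMP4 acting through Id genes, together with LIF, is known to support self-renewal and to restrain neural differentiation.

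Values are MAS5 signals scaled to a common 2%-trimmed mean, and signals at or under a floor of 36.6 were treated as not measured. A fold with 1 array at the floor is a bound, written "at least". Each group has a single array, so differences have no replicate check, no test was possible and precision is limited by the number of arrays. The labels were checked against their targets. At its brightest probe set Rnf2 read 2580 for the Ring1B control, 2775 for the Ring1B KO, 2182 for the double KO control and 1986 for the double KO. Ring1 read 146, 164, 44.7 and 55.6 in the same order. Neither gene was thus lower by 2-fold in its KO. For Ring1 in the double KO pair a 2-fold drop could not have been seen, since the control read 44.7 against the floor of 36.6. Whether these probe sets lie in the deleted parts is not known here, so the arrays go by their labels. Which array of the double KO pair is which was thus not checked by its targets, and every direction given for that pair would turn if its labels were exchanged. All 10 ES cell markers lay above the floor on all 4 arrays. The pairs also differ from each other, since 20.3% of genes were at least 2-fold apart between the control arrays.

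Promoters of the members were read from RefSeq sequence (GRCm38.p6) to show what stands before genes that were lower in the double KO comparison (Id2 and Smad6) beside genes under 2-fold apart there (Id3 and Bmp4). Windows of these 4 of the 9 genes are given, and none is given for Bmp1, Bmp2, Bmp7, Id1 and Bambi. Member windows on a single chromosome were left out after the promoter table was read, while the counts over all windows kept that chromosome. A missing window need not mean that the gene was absent from the table. The 250 bases before each transcription start are given 5′ to 3′, and capitals mark the GC-rich Smad element GGCGCC and the short Smad element GTCT, each searched on both strands, so that AGAC is GTCT on the other strand.
Id2 (chr12:25096093-25096342, minus strand): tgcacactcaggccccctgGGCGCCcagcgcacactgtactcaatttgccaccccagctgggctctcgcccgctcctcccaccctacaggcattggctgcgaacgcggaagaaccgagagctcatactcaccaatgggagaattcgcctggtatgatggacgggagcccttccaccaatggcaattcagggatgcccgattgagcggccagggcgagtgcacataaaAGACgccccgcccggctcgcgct
Smad6 (chr9:64022060-64022309, minus strand): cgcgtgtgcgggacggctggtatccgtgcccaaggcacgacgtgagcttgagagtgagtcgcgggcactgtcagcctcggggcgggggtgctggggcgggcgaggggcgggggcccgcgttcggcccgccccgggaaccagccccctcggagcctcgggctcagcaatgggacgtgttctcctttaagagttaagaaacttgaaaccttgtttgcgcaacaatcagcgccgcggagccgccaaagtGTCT
Id3 (chr4:136143572-136143821, plus strand): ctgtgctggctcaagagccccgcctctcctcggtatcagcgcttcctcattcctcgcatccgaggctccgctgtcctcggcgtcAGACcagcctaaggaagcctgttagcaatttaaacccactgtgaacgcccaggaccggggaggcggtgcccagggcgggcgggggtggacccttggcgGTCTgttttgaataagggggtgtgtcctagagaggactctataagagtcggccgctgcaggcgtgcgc
Bmp4 (chr14:46390670-46390919, minus strand): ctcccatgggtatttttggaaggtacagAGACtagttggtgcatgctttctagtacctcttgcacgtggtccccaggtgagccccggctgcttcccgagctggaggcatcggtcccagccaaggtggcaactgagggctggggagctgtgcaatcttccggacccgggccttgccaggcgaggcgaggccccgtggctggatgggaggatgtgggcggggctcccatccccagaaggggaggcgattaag

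Of these 4 windows, the Id2 window alone held GGCGCC, 231 bases before the start, a word found in 9.59% of the 32851 promoter windows of this length in the table. The GTCT word stood in all 4, once in Id2, Smad6 and Bmp4 and at 2 places in Id3, but 82.9% of all windows hold it. The windows were rich in GC, at 62.8% for Id2 and Id3, 63.2% for Bmp4 and 66.8% for Smad6, against a median of 52.4% over the table. CpG dinucleotides numbered 18 in Id2, 18 in Id3, 27 in Smad6 and 11 in Bmp4, against a median of 6. The ratio of observed to expected CpG was 0.74 in Id2, 0.73 in Id3, 0.98 in Smad6 and 0.45 in Bmp4, with a median of 0.37 over the table. These counts did not separate the genes lower in the array labelled double KO from the others, since Id2 and Id3 were alike in GC and CpG. A word match is a description of the letters and not of a bound factor.

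In the array labelled double KO, 4 of the 9 genes had signals at least 2-fold lower than in its control, and none had signals 2-fold higher. These were Bmp1, Bmp7, Id2 and Smad6. Among all genes above the floor, 9.99% reached 2-fold downward and 3.02% reached 2-fold upward here. The median log2 difference of the 9 genes was −0.42, against −0.05 over all genes. At the level of probe sets, 8 of the 14 members above the floor were at least 2-fold lower, against 8.37% of all named probe sets, but those 8 belong to the same 4 genes. In the array labelled Ring1B KO none of the 8 genes measured on both arrays was 2-fold from its control, and Bmp2, with its control at the floor, was at least 1.80-fold higher. There 3.54% of all genes reached 2-fold upward and 2.61% downward. There the median of the 9 genes was 0.40 against −0.02 over all genes, with 8 genes higher, Bmp2 among them by a bound, and Bmp4 lower.

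**Figure D1:**
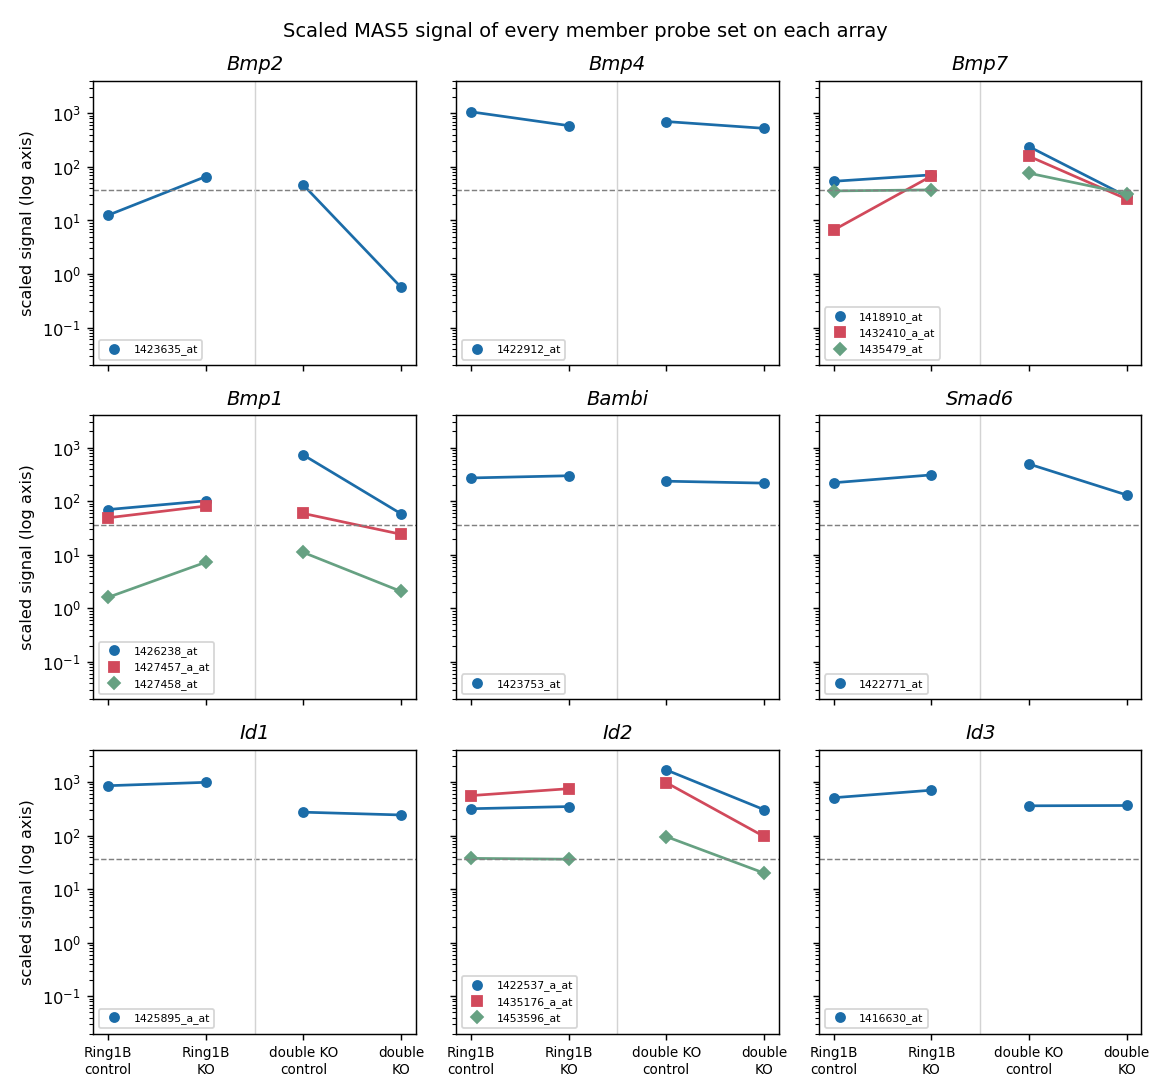
Scaled signal (log axis) of each of the 15 member probe sets on the 4 arrays, with a panel for each gene, a line joining the 2 arrays of a pair, and the floor of 36.6 dashed. Bmp1, Bmp7, Id2 and Smad6 drop from the double KO control to the double KO array, as does Bmp2 (45.8 to 0.566, the latter far under the floor), while Bambi, Id1 and Id3 run nearly level there.

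Bmp4, the ligand best known for its action on ES cells, was above the floor on every array. Its signal was 1065 for the Ring1B control and 589 for the Ring1B KO, then 702 for the double KO control and 524 for the double KO. It was lower in both KO arrays than in their own controls, by 1.81-fold (a log2 difference of −0.86) and 1.34-fold (−0.42). Of all genes, 3.75% were at least that far below the control in the Ring1B comparison and 26.5% in the double KO comparison. By brightest probe set, Bmp4 was the only one of the 9 genes with a lower signal in the array labelled Ring1B KO. Under the 7 alternative settings its difference there stayed between −0.86 and −0.84, but most of these settings could not change it. Bmp4 has a single probe set, which is far above the floor, and both Ring1B arrays share a scaling factor.

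Bmp2, a close relative of Bmp4, was near or under the floor throughout. It read 12.5 for the Ring1B control, 65.9 for the Ring1B KO, 45.8 for the double KO control and 0.566 for the double KO. The array labelled Ring1B KO was thus the highest of the 4, at least 1.80-fold above its control. The array labelled double KO was at least 1.25-fold below its control. These bounds are set by the floor. With the floor at the 20th percentile of signals the log2 differences were 2.40 and −1.94.

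Bmp7, a ligand of the same family that acts in kidney, eye and skeletal development, had 3 probe sets. At 1418910_at the signal was 53.8, 70.9, 238 and 28.1 on the Ring1B control, Ring1B KO, double KO control and double KO arrays. Probe set 1432410_a_at read 6.65, 67.4, 158 and 25.1 in that order, and 1435479_at read 35.6, 37.2, 76.2 and 31.7. All 3 were highest on the double KO control array and at the floor on the array labelled double KO. The latter was lower by at least 6.51-fold, at least 4.31-fold and at least 2.08-fold. The Ring1B KO array was higher at the 3 probe sets by 0.40, by at least 0.88 and by at least 0.02 on the log2 scale. The size of the drop in the double KO comparison depended on the floor, with a bound of −0.91 where the floor was set at the 60th percentile.

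Bmp1 bears the family name but is an astacin metalloproteinase that trims procollagens and cleaves the BMP antagonist chordin. Its brightest probe set, 1426238_at, read 69.8 in the Ring1B control, 102 in its KO, 727 in the double KO control and 58.3 in the double KO. The other 3 arrays were low and the double KO control stood far above them. The array labelled double KO was 12.5-fold below its control, a difference that 4 genes of 12353 reached or passed, Bmp1 among them. The second probe set, 1427457_a_at, did not show this peak. It read 49.0, 81.2, 59.1 and 24.1, so that the array labelled double KO was at least 1.61-fold lower. The last, 1427458_at, was under the floor on all 4 arrays. The mean over probe sets gave −1.44 in place of −3.64 on the log2 scale. The 2 probe sets above the floor were higher by 0.54 and 0.73 in the Ring1B KO than in its control.

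**Figure D2:**
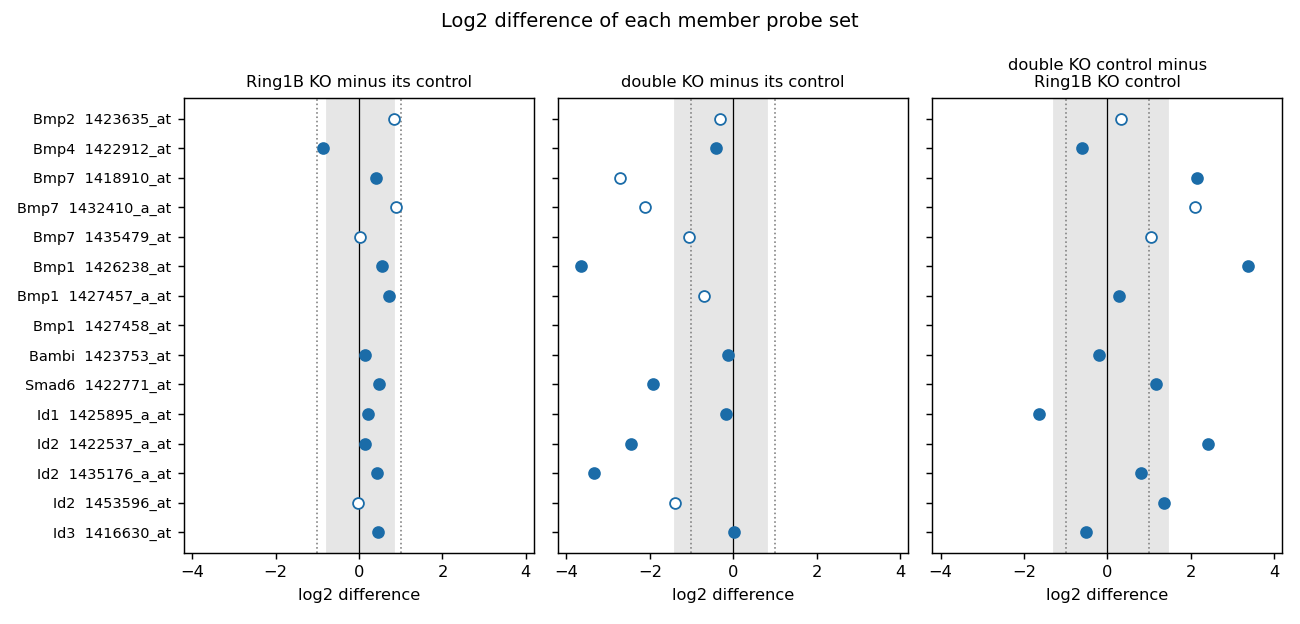
Log2 difference of each member probe set in 3 comparisons, with filled circles where both arrays were above the floor, open circles where 1 was at the floor (a lower bound), the middle 90% of all genes in grey and 2-fold dotted. The brightest probe sets of Bmp7, Bmp1, Smad6 and Id2 lie left of the grey band in the double KO comparison, and no filled circle reaches 2-fold in the Ring1B comparison.

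The inhibitors of the pathway split. Bambi, a membrane protein that resembles a type I receptor without a kinase, read 272 in the Ring1B control, 299 in its KO, 236 in the double KO control and 218 in the double KO. It was 1.10-fold higher in the array labelled Ring1B KO and 1.09-fold lower in the array labelled double KO, and the latter direction turned to 0.02 on the log2 scale under quantile normalization. Smad6 encodes an inhibitory Smad that BMP signals themselves induce. It read 221 for the Ring1B control, 309 for the Ring1B KO, 493 for the double KO control and 130.5 for the double KO. The double KO control was the highest and the double KO the lowest of the 4 arrays. The array labelled double KO was 3.78-fold lower than its control (−1.92), a size that 1.92% of all genes reached or passed downward, and between −2.05 and −1.71 under the alternatives. The array labelled Ring1B KO was 1.40-fold higher than its control.

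The 3 Id genes differed among themselves in the double KO comparison. Id1 read 851 in the Ring1B control, 985 in its KO, 273 in the double KO control and 242 in the double KO. Its signals were alike within pairs and lower in the second pair, and the array labelled double KO was 1.13-fold below its control. Id3 read 508, 702, 359 and 364 in the same order, and the array labelled double KO was 1.01-fold above its control, a direction that turned to −0.11 with the values as deposited. The Ring1B KO array was 1.16-fold higher for Id1 and 1.38-fold higher for Id3.

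Id2 was the Id gene that stood apart. At 1422537_a_at it read 317 in the Ring1B control, 347 in its KO, 1677 in the double KO control and 305 in the double KO. Probe set 1435176_a_at read 556, 748, 972 and 96.4, and the dim 1453596_at read 37.5, 36.2, 95.7 and 19.99. All 3 were highest on the double KO control array and lowest on the array labelled double KO. The array labelled double KO was lower by 5.50-fold, 10.1-fold and at least 2.62-fold at the 3 probe sets. The Ring1B KO differed from its control by 0.13, by 0.43 and, with its own signal at the floor, by a bound of −0.04 on the log2 scale. Id4, the Id gene outside the member list, read 358, 232, 246 and 1114, so the array labelled double KO was 4.52-fold above its control for Id4 and below it for Id2.

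The control arrays also differed from each other in these 4 genes. On the double KO control array Bmp1, Bmp7, Id2 and Smad6 were 10.4-, 4.43-, 5.30- and 2.23-fold higher than on the Ring1B control array, and Id1 was 3.12-fold lower. These are 4 genes higher and 1 lower among 9, against 12.2% and 8.15% of all genes. With the values as deposited, where the 2 pairs have different means, the counts became 1 higher and 4 lower, and the median over all genes moved from 0.13 to −1.32. Each of these differences lies between the pairs, and cells and processing of the pairs cannot be told apart. Because the comparisons share the double KO control array, a high signal there enters each comparison that uses it.

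With the Ring1B control array in place of its own, the array labelled double KO differed by −0.26 for Bmp1, by −0.56 or more downward for Bmp7, which was at the floor, by −0.06 for Id2 at 1422537_a_at, by a bound of −0.04 at 1453596_at, and by −0.76 for Smad6. At the Id2 probe set 1435176_a_at it was 5.77-fold lower. Bmp4 was 2.03-fold and Id1 3.52-fold lower in this comparison, where 9.87% of all genes were at least 2-fold lower. Set against the double KO control array, the array labelled Ring1B KO was 7.16-fold lower for Bmp1, 3.36-fold for Bmp7 and 4.83-fold for Id2, and 3.61-fold higher for Id1, where 11.1% of all genes reached 2-fold downward and 7.98% upward. For Bmp1, Smad6 and the Id2 probe set 1422537_a_at the 2-fold calls of the double KO comparison therefore rest on the double KO control array, and for Bmp7 and 1453596_at, where only bounds can be given, no 2-fold difference from the Ring1B control was seen.

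Other genes of the pathway were taken from lists by role, 79 genes of which 73 were named on the array. For the double KO against its control, 16 of the 54 above the floor were lower by 2-fold or more and 2 were higher, beside 9.99% and 3.02% of all genes, and the median was −0.37. The count of 16 became 8 with the floor at the 60th percentile and 8 with the mean over probe sets. It includes all 6 Bmp1 substrates, some of which also serve below as fibroblast markers. For the double KO against the Ring1B control, 10 of 55 were lower by 2-fold or more and 5 were higher. There 9.87% of all genes were at least 2-fold lower. For the Ring1B KO against its control, 6 of 58 were higher by 2-fold or more and none lower, beside 3.54% and 2.61% of all genes, and the median was 0.12. With the floor at the 20th percentile 12 were higher and 2 lower, and 2 were higher at the 60th. The lists were drawn up with earlier results of these data known.

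Among further ligands, Bmp8b and Bmp6 were lower in the array labelled double KO, as Bmp7 was. Bmp8b read 267 on its control and 47.7 there, 5.60-fold lower, and Bmp6 read 131 on its control and was under the floor there, at least 3.57-fold lower. Against the Ring1B control array, the array labelled double KO differed by −0.14 for Bmp8b and by a bound of −0.89 for Bmp6 on the log2 scale. Bmp6 was 2.84-fold higher in the array labelled Ring1B KO (67.9 to 193). Gdf3, a ligand of the same superfamily that ES cells express, went the other way, from 964 on the control to 2244, or 2.33-fold higher.

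Receptors and Smads carry the signal from the ligands to the nucleus. Of 6 receptor genes with a signal above the floor, Acvr1, a type I receptor gene, was the 1 that reached 2-fold in the double KO comparison, at 2.55-fold lower (142 to 55.6). The receptor genes Bmpr1a and Bmpr2 differed by −0.30 and −0.71. The 4 Smad genes above the floor ranged from 0.06 for Smad1 to −0.57 for Smad7, the other inhibitory Smad, and none reached 2-fold in either KO against its own control. The E protein genes Tcf3, Tcf4 and Tcf12, whose products Id proteins bind, differed by 0.02, 0.90 and −0.65 in the double KO comparison.

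Among antagonists outside the member list, 1 of 7 above the floor was 2-fold apart in the double KO comparison. This was Grem1, a secreted BMP antagonist, which read 422 on the double KO control array and 59.0 on the array labelled double KO, 7.14-fold lower. In the array labelled Ring1B KO the BMP-binding protein gene Bmper was 4.11-fold higher (51.1 to 210.1) and Fst, which encodes follistatin, 2.38-fold higher (162 to 385). Tob1, an intracellular regulator that binds Smads, was 7.05-fold lower on the double KO control array than on the Ring1B control array. It was a further 3.01-fold below the double KO control in the array labelled double KO. Of 10 other target genes above the floor, 5 were at least 2-fold lower there, led by Gata3 (9.44-fold, 370.5 to 39.2) and Msx2 (3.63-fold, 189 to 52.2), and Id4 was the one higher. Msx2 and Tbx3 were 2.59-fold and 2.43-fold higher in the array labelled Ring1B KO. On the double KO control array, 6 of 10 other target genes were at least 2-fold higher than on the Ring1B control array. None was 2-fold lower, while 12.2% and 8.15% of all genes reached 2-fold up and down. Against the Ring1B control array, the array labelled double KO differed by a bound of 0.10 for Gata3, by −0.08 for Msx2 and by −2.19 for Grem1. The 2-fold calls of Gata3 and Msx2 therefore rest on the double KO control array.

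**Figure D3:**
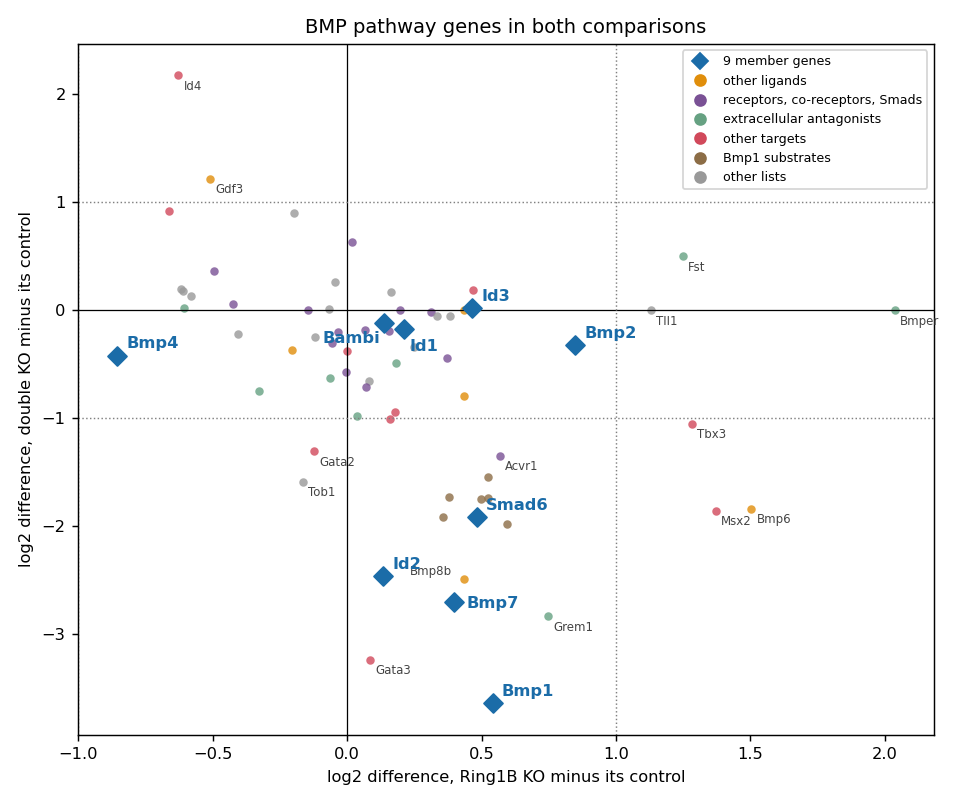
Log2 difference of BMP pathway genes in the Ring1B comparison (x axis) and the double KO comparison (y axis), with the 9 member genes as blue diamonds, the listed genes as circles coloured by role, and 2-fold dotted. Bmp1, Bmp7, Id2 and Smad6 lie below −1 on the y axis beside Grem1 and the Bmp1 substrates, Id4 lies above 2, and Bmp4 is at the left edge.

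Genes of matrix proteins that Bmp1 is known to process were also lower in the double KO comparison. All 6 on the list (Col1a1, Col1a2, Col3a1, Lox, Dcn and Bgn) were at least 2-fold lower in the array labelled double KO, with a median of −1.74. Of all genes, 9.99% were at least 2-fold lower there. Lox, the lysyl oxidase gene, read 1671 on the control and 425 there, and Dcn, the decorin gene, read 206 and 54.7. In the Ring1B KO their median difference was 0.51 and none was 2-fold apart, although Tll1, a proteinase gene of the Bmp1 family, was 2.19-fold higher (44.9 to 98.2). Col1a1, Col1a2, Col3a1 and Dcn are also in the fibroblast marker list described next.

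Markers of other cell types differed alongside the members. In the double KO comparison 12 of 13 fibroblast markers were at least 2-fold lower, as were 7 of 10 primitive endoderm markers and 6 of 7 trophoblast markers above the floor. Of all genes, 9.99% were at least 2-fold lower. The summed signals of these lists went from 4317 to 1229, from 13592 to 5536 and from 9481 to 2332, while that of ES cell markers went from 47188 to 63283. Against the Ring1B control array, 6 of 7 trophoblast markers were at least 2-fold higher on the double KO control array and 1 was lower. Of all genes, 12.2% were higher and 8.15% lower by that much. The array labelled double KO was at least 2-fold below the Ring1B control array in 10 of 12 fibroblast and 7 of 9 endoderm markers. Of 6 trophoblast markers, 1 was lower and 1 higher by that much, while 9.87% of all genes were lower. Within the Ring1B pair the summed signals were higher in the array labelled KO, from 6825 to 11667 for fibroblasts, from 7755 to 21899 for primitive endoderm and from 2703 to 3338 for trophoblast, while that of ES cell markers went from 58896 to 49425. In that pair 9 of 11 primitive endoderm, 2 of 12 fibroblast and 2 of 7 trophoblast markers were at least 2-fold higher, beside 3.54% of all genes. Tfap2c of the trophoblast list was 2.16-fold lower (1496 to 692). Bright genes weigh most in such sums, and single markers can run against them. Klf4 ran against the ES cell sum in both pairs, with log2 differences of 0.48 in the Ring1B pair and −0.59 in the double KO pair. Afp of the endoderm list and Elf5 of the trophoblast list were at the floor on all 4 arrays. The part of these cell types in the values of Bmp1, Bmp7, Id2 and Smad6 was not tested, and in bulk RNA fewer cells of a type and less RNA per cell cannot be told apart.

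**Figure D4:**
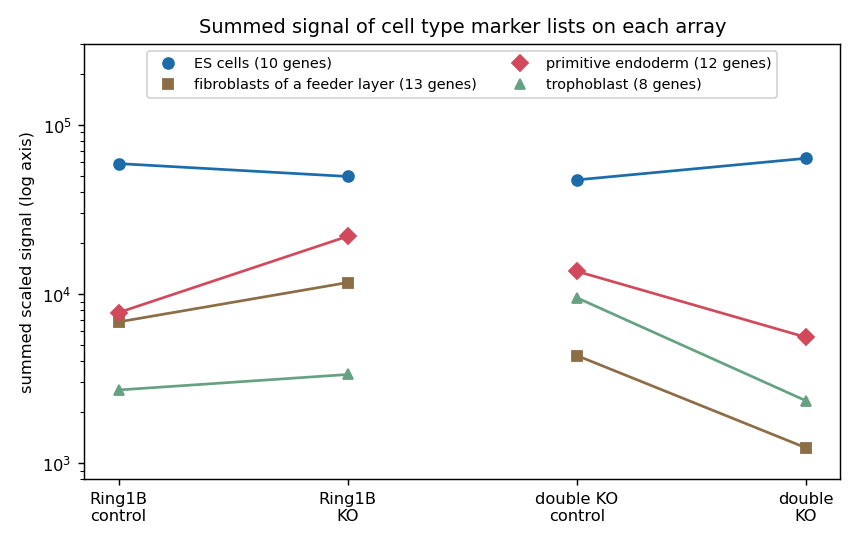
Summed scaled signal (log axis) of 4 cell type marker lists on each array, with a line joining the arrays of a pair. The fibroblast, primitive endoderm and trophoblast sums are lower in the double KO than in its control (fibroblast 4317 to 1229) and higher in the Ring1B KO than in its control (6825 to 11667), while the ES cell sum runs the other way in each pair.

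Genes with profiles like those of members were sought among 8777 genes above 2 times the floor on all 4 arrays. Likeness was the largest gap between centred log2 signals over the 4 arrays. Nearest to Bmp4 were Atp8a1, Celf5 and Nmral1, with gaps of 0.09, 0.09 and 0.10. Nearest to Id1 were Rbis, Ptpn12 and Dnajc12, with gaps of 0.05, 0.07 and 0.08. Bmp7 was at the floor on the array labelled double KO and would itself fail that filter, so its nearest genes, Saa3, Eomes and Galnt12, are given with no gap. Eomes, a T-box gene of trophoblast and early mesoderm, read 85.3, 164, 453 and 87.5 on the Ring1B control, Ring1B KO, double KO control and double KO arrays.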

How the data were processed

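RNA of 4 ES cell samples was hybridised to 1 Affymetrix array each. The deposited values are linear signal intensities. The authors made these intensities in MAS5 (from the submitters' processing notes, where version and settings are not given). Their 2%-trimmed means were 500.0 for both Ring1B arrays, 160.4 for the double KO control and 147 for the double KO, and each array was scaled to a common 277. Signals were floored at 36.6, the 40th percentile over 34958 probe sets with 1 gene symbol, and log2-transformed. The probe set with the highest mean log2 signal stood for a gene, without manufacturer's controls. A floor shrinks differences of dim genes, and a common mean assumes alike total signal.

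Counts at 2-fold (1 on the log2 scale) run over genes whose signal passed the floor on either array compared. No test across arrays was run. The steps were tested on simulated data, with changes put only into genes well above the floor, so differences of genes near the floor were not covered. Members and gene lists were chosen with earlier results of these data known. Named were all members, Ring1 and Rnf2, the 3 nearest profiles of Bmp4, Id1 and Bmp7, and per role up to 2 listed genes in each direction at least 2-fold apart. Bmpr1a, Bmpr2, the Smads and the E proteins were named beyond that rule, after their values were seen. Alternatives were quantile normalization, values as deposited, floors at the 20th and 60th percentiles, no floor with a pseudocount of 16, the mean over probe sets, and leaving out _s_at and _x_at probe sets. Scripts used Python 3.11.15, numpy 2.4.6 and pandas 2.3.3.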

Additional observations from a re-analysis of the deposited data

Results flagged for a closer look

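Among the 9 genes, 7 lay above their control in the array labelled Ring1B KO and below it in the array labelled double KO. Over all genes above the floor on at least 1 array, 55.03% took opposite directions in the 2 comparisons, in either order. Genes at the floor on both arrays of a pair counted as not opposite. The share of all genes with the order seen in these 7 was not counted. With 1 array per group the differences between the comparisons were not tested. The double KO difference minus the Ring1B difference was −4.18 on the log2 scale for Bmp1, −2.59 for Id2 and −2.40 for Smad6. It was −3.10 for Bmp7 and −1.17 for Bmp2, both of which rest on signals set to the floor. For Id1 and Bambi it was −0.38 and −0.25, and neither gene was 1.2-fold from its control in either comparison. Bmp4 and Id3 took the same direction in both comparisons, but in the double KO comparison Id3 turned to −0.11 with the values as deposited and Bambi to 0.02 under quantile normalization.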

How the results depend on the processing

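No replicate exists in any group, so the steadiness of a value over settings says nothing about biological spread, and the depth of these arrays is limited by signal over the floor. No paired analysis was possible because each group has 1 array. A log2 difference was counted as moved where it shifted by 1.5-fold or more. A count was counted as moved where it changed by more than 1.5-fold, or from or to 0. A reversal was counted only for a main log2 difference of at least 1 in size. Sign changes of smaller values, such as Id3 and Bambi in the double KO comparison, were therefore not counted as reversed. Of 287 values recomputed over 7 alternative settings, 241 stayed within these limits, 45 moved and 1 reversed. Many of these values could not have moved, so the count of 241 is no measure of robustness. No member probe set is of the _s_at or _x_at kind, and a gene with a single probe set keeps its value under the mean. Bright genes do not depend on the floor, and the Ring1B arrays share a scaling factor. The count of 4 members at least 2-fold lower in the double KO comparison lay between 3 and 5. In the Ring1B comparison the count of members at least 2-fold higher went from 0 to 1, Bmp2, with the values as deposited, with the floor at the 20th percentile and with no floor. The double KO median of −0.42 became −1.21 with the values as deposited, −1.92 with the floor at the 20th percentile and −1.80 with no floor. Between the control arrays the values as deposited gave 1 member higher, 4 lower, a median of −1.16 in place of 0.32, and a reversed Smad6 (−0.48). That setting moves the median over all genes there from 0.13 to −1.32 because the pairs were deposited with different means. The control median was 1.16 with the floor at the 20th percentile and 1.10 with no floor. Over all genes, the count at least 2-fold lower in the double KO comparison was 1234, against 2172 with the floor at the 20th percentile and 529 at the 60th.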
